A study of Oryza sativa with 24 samples.

Results

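The plasma membrane intrinsic proteins (PIPs) are the aquaporins of the plant cell surface, and the 10 rice PIP genes described here were taken by their locus identifiers: PIP1-1 (LOC_Os02g44630), PIP1-2 (LOC_Os04g47220), PIP1-3 (LOC_Os02g57720), PIP2-1 (LOC_Os07g26690), PIP2-2 (LOC_Os02g41860), PIP2-3 (LOC_Os04g44060), PIP2-4 (LOC_Os07g26630), PIP2-5 (LOC_Os07g26660), PIP2-6 (LOC_Os04g16450) and PIP2-7 (LOC_Os09g36930). They are 10 of the 55801 genes in the expression table. RNA-seq was run on flag leaves at heading from 6 groups with 2 libraries each. Fix T0 is the founding plant of an apomictic line called Fix, made in the hybrid rice Chunyou84 by editing REC8, PAIR1, OSD1 and MTL so that it sets clonal seed. Fix T1, Fix T2, Fix T3 and Fix T4 are its successive selfed generations, kept diploid by flow cytometry and raised from seed. CY84 is the unedited Chunyou84, a cross of the japonica male-sterile line 16 A with the indica-japonica intermediate line C84. Fix T0 and CY84 were both carried over by their roots, so the seed generations differ from both of them in how they were raised. All plants were field grown in a paddy, and nothing in the labels says whether the replicates of a group are separate plants, so a p-value measures only the spread between these samples.

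Aquaporins form pores that let water, and in some members carbon dioxide, hydrogen peroxide or small uncharged solutes, cross a membrane along its gradient. PIP2 proteins are as a rule efficient water channels, and PIP1 proteins, first studied in this respect in maize, commonly need a PIP2 partner to reach the plasma membrane and open a path for water there. In leaves PIPs serve the movement of water from the xylem through bundle sheath and mesophyll toward the stomata, and they also act in the diffusion of carbon dioxide into mesophyll cells. Their activity is set by phosphorylation, pH and trafficking as well as by transcript level, and only the last was measured here.

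Levels are in FPKM, fragments scaled for gene length and library size, so that genes of different length can be compared. The libraries held between 22097 and 23731 genes above 0, and their depth relative to CY84 replicate 1, read from the most common ratio of low values (shared by 44 to 95 genes), ranged from 0.674 in Fix T3 replicate 2 to 1.6 in Fix T1 replicate 2. The 5 leaf markers (3 small-subunit genes of Rubisco, a chlorophyll a/b binding protein gene and PSBO) summed to 21348 to 51320 FPKM per library, highest in both Fix T2 libraries. In no library did any of the 5 anther markers reach 1 FPKM, and 3 of the 5 root markers did not either. Replicates correlated least in Fix T2 and Fix T1, with r = 0.936 and r = 0.945 over the 18871 tested genes, against 0.958 to 0.982 in the other 4 groups.

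The family was led by 1 gene. PIP2-7 had a median of 3076 FPKM over the 12 libraries, with a lowest value of 2552 FPKM in Fix T4 replicate 2 and a highest of 4203 FPKM in Fix T2 replicate 1, and its mean ranked 25th among all 55801 listed genes. In rice PIP2-7 has been studied for chilling tolerance and for arsenite transport. The 3 PIP1 genes came next. PIP1-2, which has been linked in rice to carbon dioxide diffusion in mesophyll, had a median of 843 FPKM (606 to 1716). PIP1-1, the rice water channel RWC1, had a median of 611 FPKM (438 to 905). PIP1-3, also called RWC3 and linked in rice to drought avoidance, had a median of 577 FPKM (337 to 830).

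Of the remaining PIP2 genes, the water channel genes PIP2-1 and PIP2-2 were expressed at a middle level, with medians of 324 FPKM (231 to 501) and 158 FPKM (106 to 188). Another 3 genes were low: PIP2-5, known in rice mainly from roots, with 14.1 FPKM (3.67 to 24.1), PIP2-6, an arsenite-permeable member, with 10.5 FPKM (6.10 to 18.8), and PIP2-4, also known from roots, with 8.60 FPKM (4.68 to 11.9). PIP2-3 was listed at 0 in all 12 libraries. The genes thus formed tiers: no library of PIP2-7 overlapped any library of a PIP1 gene, and no library of the 3 low genes came near PIP2-2. The middle genes were not apart from the PIP1 genes, since the range of PIP2-1 overlapped those of PIP1-3 and PIP1-1, and in CY84 replicate 2 PIP1-3 (337 FPKM) and PIP2-1 (335 FPKM) were almost equal. Within the PIP1 tier and within the low tier the ranges over libraries overlapped, so the order of genes inside those tiers was not fixed. PIP2-4, PIP2-5 and PIP2-1 are neighbours on chromosome 7 with no other protein-coding gene annotated between them, and PIP2-1 stood far above both of the others, whose ranges overlapped. PIP genes are similar in sequence, and the sources used here do not say how fragments matching several of them were counted, so a part of each level, the zeros of PIP2-3 included, could belong to a near copy.

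**Figure D1:**
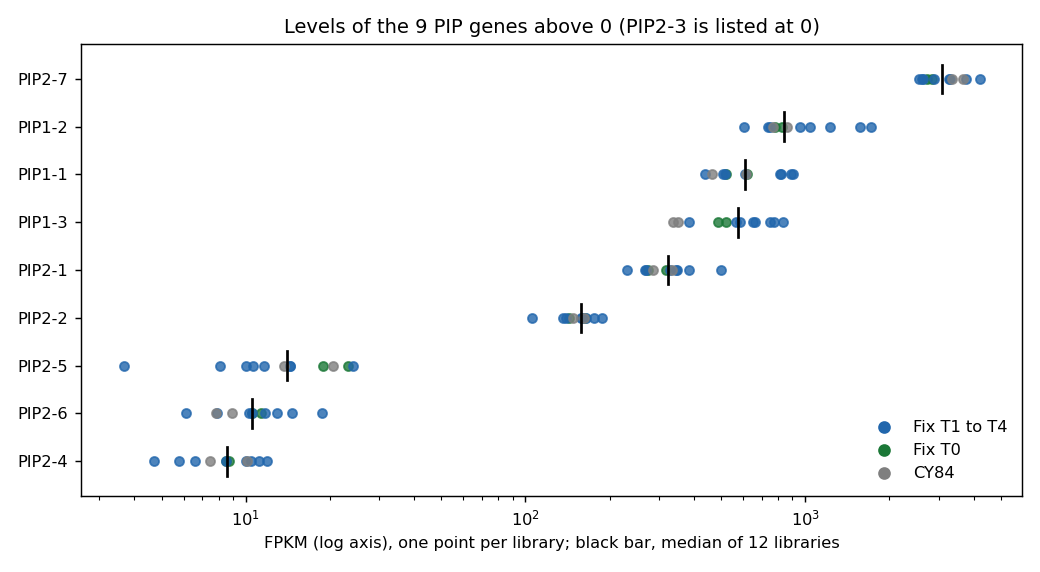
FPKM of the 9 PIP genes above 0 on a log axis, with 1 point per library (blue, Fix T1 to T4; green, Fix T0; grey, CY84) and a black bar at the median of 12 libraries. PIP2-7 lies above all other members at 2552 to 4203 FPKM, and PIP2-5, PIP2-6 and PIP2-4 form a low tier below 25 FPKM.

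Of the 10 genes, 9 reached the minimum of 1 FPKM in at least 2 libraries and were tested, and PIP2-3 was not. Among these 9 the standard deviation of log2(FPKM + 1) over the 12 libraries had a median of 0.37, against 0.40 over all tested genes. PIP2-2 and PIP2-7 were among the steadier genes, with standard deviations of 0.21 and 0.24, lower than in all but 5.52% and 9.15% of tested genes. PIP2-5 was the least steady member, with a standard deviation of 0.68, above 90.4% of tested genes, and its highest library stood 6.59 times above its lowest. Replicates of the 9 members stayed within 1.5-fold of each other for all 9 in Fix T0 and in CY84, but for 6 in Fix T1, 5 in Fix T2, 8 in Fix T3 and 7 in Fix T4.

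PIP1-3 had the clearest pattern across groups. It had 521 and 488 FPKM in the Fix T0 libraries, 830 and 746 FPKM in Fix T1, 385 and 567 FPKM in Fix T2, 664 and 773 FPKM in Fix T3, 587 and 651 FPKM in Fix T4, and 352 and 337 FPKM in CY84. All 10 Fix libraries thus lay above both CY84 libraries, and the lowest of them, Fix T2 replicate 1, was closest to CY84. Ordered by mean, the groups ran Fix T1, Fix T3, Fix T4, Fix T0, Fix T2 and CY84. The libraries of Fix T1 and Fix T3 overlapped, as did those of Fix T0 and Fix T2, while the other 3 steps between neighbours were free of overlap.

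PIP1-2 stood high in 2 of the seed generations. It had 779 and 828 FPKM in the Fix T0 libraries, 1573 and 1037 FPKM in Fix T1, 748 and 606 FPKM in Fix T2, 1716 and 1223 FPKM in Fix T3, 957 and 737 FPKM in Fix T4, and 767 and 858 FPKM in CY84. The 4 libraries of Fix T1 and Fix T3 were the 4 highest, and the remaining 8 lay between 606 and 957 FPKM. PIP1-1 showed no such split: Fix T1 was high in both libraries (812 and 888 FPKM), but Fix T2 held 905 FPKM in replicate 1 and 516 FPKM in replicate 2, and Fix T4 held 817 and 438 FPKM, so that no step between neighbouring groups was free of overlap.

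Among PIP2 genes, PIP2-7 had 2734 and 2841 FPKM in the Fix T0 libraries, 2636 and 2611 FPKM in Fix T1, 4203 and 3286 FPKM in Fix T2, 3271 and 3751 FPKM in Fix T3, 2882 and 2552 FPKM in Fix T4, and 3678 and 3340 FPKM in CY84. These fell into a higher set (Fix T2, Fix T3 and CY84) and a lower set (Fix T0, Fix T1 and Fix T4), with no overlap between the sets. The split was read from these same values and did not hold after median-of-ratios rescaling, in which each library is divided by a factor. Fix T1 replicate 1 (factor 0.868) then lay above CY84 replicate 2 (factor 1.14). PIP2-5 had 18.8 and 23.1 FPKM in the Fix T0 libraries, 14.4 and 14.4 FPKM in Fix T1, 3.67 and 8.08 FPKM in Fix T2, 10.04 and 24.1 FPKM in Fix T3, 11.6 and 10.6 FPKM in Fix T4, and 13.7 and 20.5 FPKM in CY84. Both Fix T2 libraries were below the other 10 in these values. After rescaling, Fix T2 replicate 2 (factor 0.727) lay above both Fix T4 libraries (factors 1.19 and 1.29). The Fix T3 pair, with the highest of all 12 unscaled values in replicate 2, was the widest apart in FPKM.

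PIP2-6 had 11.4 and 10.6 FPKM in the Fix T0 libraries, 18.8 and 11.8 FPKM in Fix T1, 10.3 and 10.5 FPKM in Fix T2, 12.9 and 14.6 FPKM in Fix T3, 7.87 and 6.10 FPKM in Fix T4, and 7.86 and 8.92 FPKM in CY84. Fix T1 and Fix T3 were again the groups with the highest means, and Fix T4 and CY84 those with the lowest. PIP2-1 averaged 423 ± 110 FPKM in Fix T3 and between 289 and 326 FPKM in the other 5 groups. Only replicate 1 of Fix T3 stood high, at 501 FPKM. Replicate 2, at 345 FPKM, lay below Fix T1 replicate 2 (385 FPKM) and Fix T2 replicate 2 (347 FPKM). PIP2-4 averaged 11.5 ± 0.561 FPKM in Fix T3 (SD, n = 2) and between 7.13 and 8.76 FPKM elsewhere. PIP2-2 was level, with group means from 141 FPKM in Fix T4 to 162 FPKM in Fix T3.

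**Figure D2:**
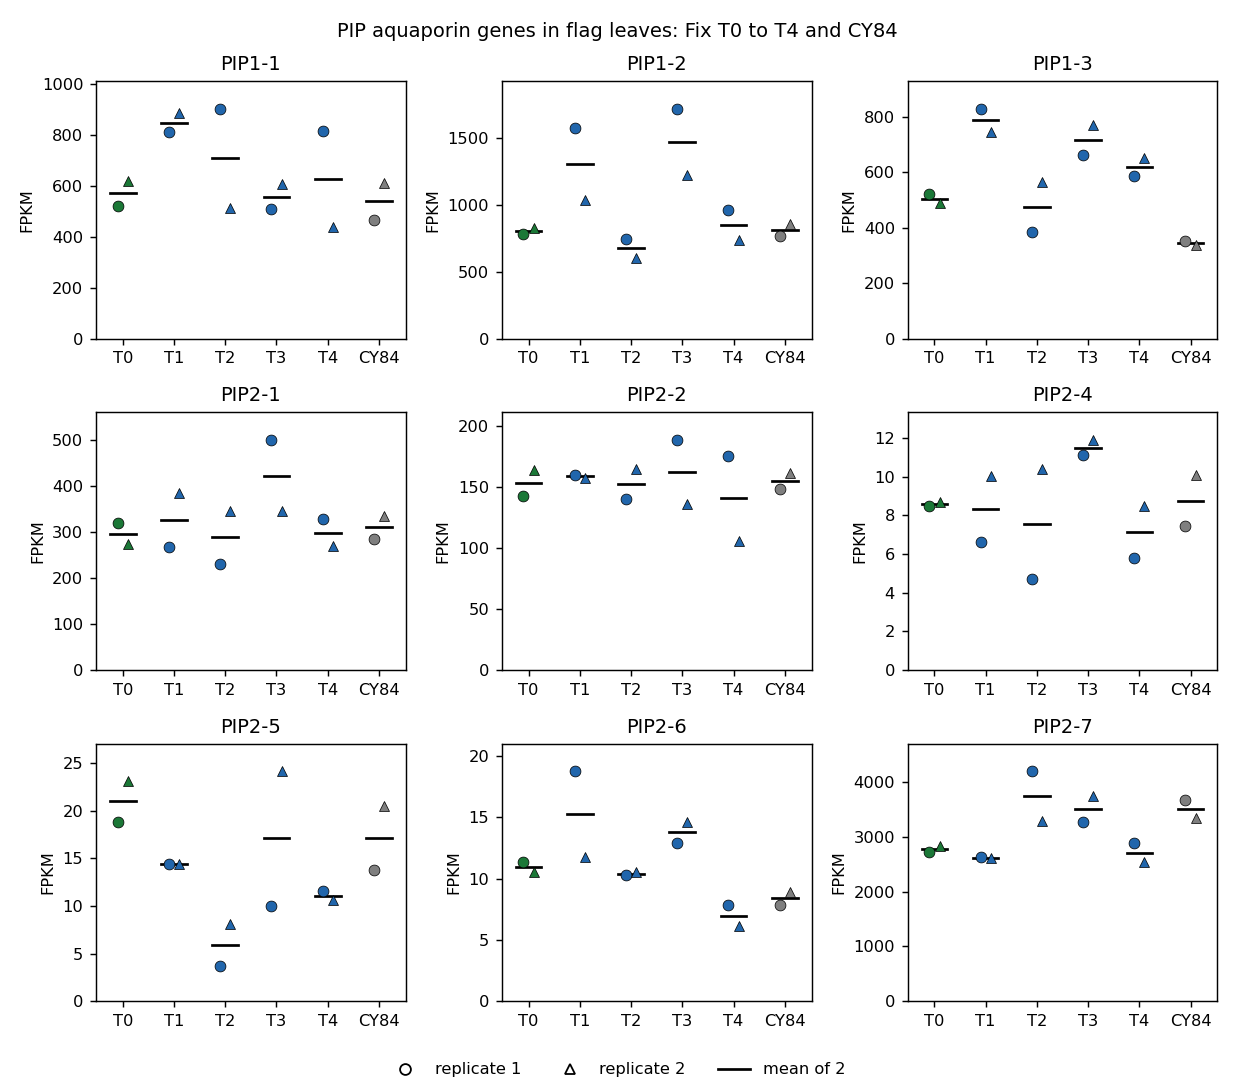
FPKM of each of the 9 PIP genes above 0 (vertical axes from 0, a separate scale per gene) in Fix T0 to T4 (T0 green, T1 to T4 blue) and CY84 (grey). Circles are replicate 1, triangles replicate 2 and black bars the mean of 2 libraries; PIP1-3 stands at 385 to 830 FPKM in the 10 Fix libraries and at 337 and 352 FPKM in CY84.

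Summed over the 10 genes, PIP transcripts made up 0.702% to 0.985% of the summed FPKM of a library. The sum was highest in Fix T3 (6884 and 6886 FPKM), while Fix T4 replicate 2 had the lowest sum, 4778 FPKM. The balance between subfamilies varied more than the sum. PIP1 genes held 50.9% and 45.6% of the PIP sum in Fix T1, against 36.0% and 36.8% in Fix T0, and 30.7% and 30.6% in Fix T2. In CY84 they held 27.7% and 31.8%. The share of PIP2-7 alone ran from 41.7% in Fix T1 replicate 1 to 64.2% in CY84 replicate 1. PIP2-7 made up most of the PIP2 part of the same total, so its share had to fall largely as that of PIP1 rose. These sums are descriptions and were not tested. In whole leaves, fewer cells of a type and less RNA per cell cannot be told apart in any of these levels.

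**Figure D3:**
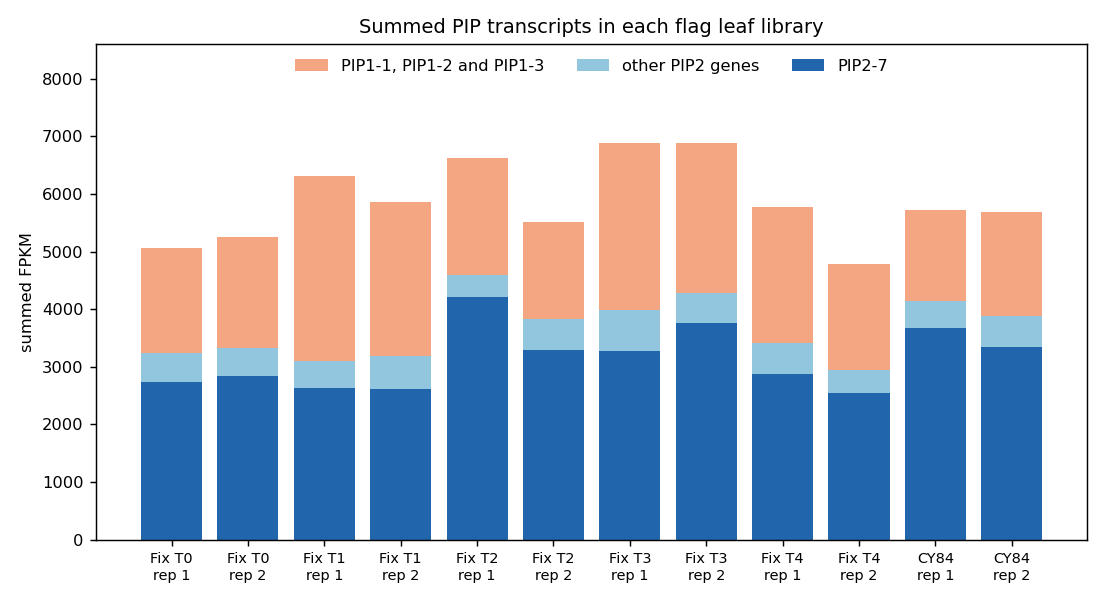
Summed FPKM of the PIP genes in each of the 12 libraries, split into PIP2-7, the other PIP2 genes and the 3 PIP1 genes. The total lies between 4778 and 6886 FPKM, and the PIP1 part is largest in Fix T1 replicate 1 at 3215 FPKM.

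The edited line as a whole was compared with CY84 through the mean of its 5 generations, so the edits and the seed-raised plants enter it together. PIP1-3 came closest to the threshold: it averaged 621 ± 138 FPKM in Fix (SD, n = 10) and 344 ± 11.1 FPKM in CY84 (SD, n = 2). On the log2(FPKM + 1) scale, used for all differences here and understating changes of low genes, the difference was 0.82 (SE 0.19, 95% interval 0.40 to 1.23, limma adjusted p = 0.0857). Passing required an adjusted p under 0.05 (Benjamini-Hochberg over all tested genes), which PIP1-3 missed. None of the 9 members passed, against 0.747% of all tested genes, and 1 of 9, PIP1-3, had an unadjusted limma p under 0.05, against 13.1% of all. PIP1-3 was also the 1 member whose 10 Fix libraries all exceeded both CY84 libraries, which 2.73% of tested genes did, and 0 of 9 members lay below without overlap, against 4.71%. The 5 root markers summed to 40.3 to 78.0 FPKM in Fix and 28.8 to 31.8 FPKM in CY84. Most of this sum was NIP2-1, with 32.9 to 72.8 FPKM in Fix, and 18.6 and 19.6 FPKM in CY84. The only other root marker to reach 1 FPKM, LOC_Os02g40730, was not raised, with 5.18 to 11.1 FPKM in Fix, and 10.2 and 12.2 FPKM in CY84. The part of the root markers in the PIP1-3 difference was not tested. The call depended on single libraries and settings. It passed without Fix T2 replicate 1 (limma adjusted p = 0.0298), and, in 2 fits chosen after seeing the data, without the 4 libraries of Fix T1 and Fix T2 (0.0218) and with library weights (0.00255). Over all alternatives its adjusted p ranged from 0.00255 to 0.887, the highest without CY84 replicate 2.

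For the other members the intervals bound what could have gone unseen. PIP2-2 differed by -0.03 (95% interval -0.48 to 0.43), PIP2-1 by 0.04 (-0.45 to 0.54) and PIP2-7 by -0.21 (-0.65 to 0.24), so differences of 1 on the log2 scale, a doubling or halving, lay outside these intervals in either direction. PIP2-5 had the widest interval, -1.08 to 0.27 around a difference of -0.40. Over the 9 members the median difference was 0.04, with 5 above 0, against -0.13 over all tested genes. Median-of-ratios rescaling of the libraries moved the median of all genes by 0.13 in this comparison, the members' median to 0.21 and the number above 0 to 7, and it put PIP1-3 at 0.98 (limma adjusted p = 0.131).

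Fix T0 against CY84 sets the founding plant beside the hybrid, both kept by their roots. PIP1-3 had 521 and 488 FPKM in Fix T0, against 352 and 337 FPKM in CY84, and PIP2-6 had 11.4 and 10.6 FPKM in Fix T0, against 7.86 and 8.92 FPKM in CY84. PIP2-7 went the other way, with 2734 and 2841 FPKM in Fix T0, against 3678 and 3340 FPKM in CY84. The libraries did not overlap for these 3: 2 of 9 members were higher, against 18% of all tested genes, and 1 was lower, against 26.6%, shares near the background. No member passed, against 0.0901% of all tested genes, and 1 of 9, PIP1-3, had an unadjusted limma p under 0.05 (log2 difference 0.55, 95% interval 0.01 to 1.08, limma adjusted p = 1), against 3.87% of all. The remaining 6 members differed by between -0.07 and 0.30.

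Fix T4 against CY84 spans the whole line of descent, so the edits, the raising from seed and the generations cannot be told apart in it. PIP1-3 had 587 and 651 FPKM in Fix T4, against 352 and 337 FPKM in CY84, a log2 difference of 0.84 (SE 0.25, 95% interval 0.31 to 1.38, limma adjusted p = 0.142). No PIP gene passed, against 1.88% of all tested genes, and 1 of 9 had an unadjusted limma p under 0.05, against 10.3% of all. PIP1-3 did pass when these 2 groups were fitted alone (limma adjusted p = 0.0167), and, in the fits chosen after seeing the data, without the libraries of Fix T1 and Fix T2 (0.0329) and with library weights (0.00720). Over all alternatives the adjusted p ranged from 0.00720 to 0.632. The other 8 members differed by between -0.56 (PIP2-5) and 0.16 (PIP1-1). PIP1-3 was the 1 member higher without overlap, as were 35.7% of tested genes. PIP2-5 and PIP2-7 were lower in both Fix T4 libraries than in both CY84 libraries, as were 15% of tested genes.

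Each seed generation was then set against Fix T0, from which it differs both by descent and by having been raised from seed. The 4 comparisons share the Fix T0 libraries and are given side by side. In none of them did any of the 9 members pass, against 0.0795% of all tested genes in Fix T1, 0.0901% in Fix T2, 0.291% in Fix T3 and 1.05% in Fix T4. At an unadjusted limma p under 0.05 there were 2 members in Fix T1 (PIP1-2 and PIP1-3), against 5.04% of all genes, 1 in Fix T2 (PIP2-5), against 19%, 1 in Fix T3 (PIP1-2), against 16.4%, and 0 in Fix T4, against 7.96%.

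In Fix T1 all 3 PIP1 genes and PIP2-6 were higher in both libraries than in both Fix T0 libraries. That made 4 of 9 members, against 15.5% of tested genes. After rescaling it held for the 3 PIP1 genes but not for PIP2-6. Fix T1 replicate 2 (factor 1.19) then lay below both Fix T0 libraries (factors 1.11 and 1.04) for PIP2-6. PIP1-2 differed by 0.67 (SE 0.29, limma adjusted p = 0.960), PIP1-3 by 0.64 (SE 0.25, limma adjusted p = 0.882) and PIP1-1 by 0.58 (SE 0.34, limma adjusted p = 0.981). For PIP1-2 the difference moved with single libraries, to 0.37 when replicate 1 of Fix T1 was left out and 0.97 when replicate 2 was. PIP2-5 and PIP2-7 were lower without overlap, as were 14.3% of tested genes. For PIP2-7 the log2 difference was only -0.09, and -0.01 after rescaling.

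In Fix T2 the member that stood apart was PIP2-5, with 3.67 and 8.08 FPKM in Fix T2, against 18.8 and 23.1 FPKM in Fix T0. PIP1-2 and PIP2-6 were also lower without overlap (log2 differences of -0.25 and -0.07), which made 3 of 9 members, against 42.5% of tested genes, and PIP2-7 was the 1 member higher, against 9.72%. For PIP2-5 the log2 difference was -1.75 (SE 0.40, 95% interval -2.62 to -0.88, limma adjusted p = 0.157). It did not pass in any alternative, with adjusted p from 0.0544 to 0.615 and differences from -2.23 to -1.27. The median difference of all genes was -0.28 here and rescaling moved it by 0.32. After rescaling PIP2-5 differed by -1.38, while the members' median was 0.31, against -0.07 before, and 8 members were above 0, against 2 before, so the direction of most members in Fix T2 depended on the scaling, that of PIP1-3 (-0.11 before and 0.30 after) included. Both Fix T2 libraries also had the highest summed leaf markers (49693 and 51320 FPKM, against 28919 and 36177 FPKM in Fix T0). The morning clock gene LHY was at 26.1 and 11.7 FPKM in Fix T2, against 68.2 and 65.8 FPKM in Fix T0. Of the other clock genes looked at, TOC1, PRR37, PRR73, PRR95, PRR59 and ELF3-1 were also lower in both libraries, as were 42.5% of tested genes. For TOC1, PRR37 and PRR95 this was only barely so. GI was not, with 229 and 118 FPKM in Fix T2, against 177 and 193 FPKM in Fix T0. After rescaling, Fix T2 replicate 1 (factor 0.899) lay above both Fix T0 libraries (factors 1.11 and 1.04) for TOC1, PRR37 and PRR95. For PRR59 the groups then overlapped, while LHY, PRR73 and ELF3-1 stayed lower in both Fix T2 libraries. The time of day of sampling is not in the labels, and the part of leaf markers or clock genes in the PIP levels was not tested.

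In Fix T3, 6 of the 9 members were higher in both libraries than in both Fix T0 libraries, against 16.3% of tested genes: PIP1-2, PIP1-3, PIP2-1, PIP2-4, PIP2-6 and PIP2-7. No member was lower without overlap, against 40.2% of tested genes. The median difference of the members was 0.33, against -0.19 over all tested genes, and rescaling moved the median of all genes by 0.20. After it the members' median was 0.58, and 8 of 9 were above 0, against 7 before. PIP1-2 had the largest difference, with 1716 and 1223 FPKM in Fix T3, against 779 and 828 FPKM in Fix T0. It came to 0.85 on the log2 scale (SE 0.29, 95% interval 0.22 to 1.48, limma adjusted p = 0.204). Over the alternatives its adjusted p ranged from 0.0512 to 0.633, and it passed in none. The clock gene LHY stood at 19.6 and 30.5 FPKM in Fix T3, against 68.2 and 65.8 FPKM in Fix T0. The other clock genes looked at were also lower in both Fix T3 libraries, as were 40.2% of tested genes. GI, for example, had 141 and 130 FPKM, against 177 and 193 FPKM in Fix T0. After rescaling the TOC1 libraries of Fix T3 and Fix T0 overlapped. The part of the clock genes in these levels was not tested.

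In Fix T4, PIP1-3 was the 1 member higher without overlap, with 587 and 651 FPKM in Fix T4, against 521 and 488 FPKM in Fix T0. This was a difference of 0.29 (SE 0.25, limma adjusted p = 0.934), which rescaling reduced to 0.09, and 35.9% of tested genes did the same. PIP2-4, PIP2-5 and PIP2-6 were lower without overlap, as were 9.41% of tested genes. For PIP2-4 this was almost a tie, with 5.77 and 8.487 FPKM in Fix T4, against 8.493 and 8.71 FPKM in Fix T0 (log2 difference -0.26). Of the lower members, PIP2-5 differed most, at -0.86 (SE 0.40, limma adjusted p = 0.639), followed by PIP2-6 at -0.59 (SE 0.27, limma adjusted p = 0.629). The members' median was -0.04, against 0.16 over all genes, and on rescaling 1 of 9 members was above 0, against 4 before.

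A linear trend over the 5 Fix generations was looked for because the plants form a line of clonal descent. No member's slope passed, against 0.954% of all tested genes, and 0 had an unadjusted limma p under 0.05, against 7.8% of all. Slopes per generation lay between -0.16 for PIP2-5 (95% interval -0.36 to 0.03, limma adjusted p = 0.835) and 0.05 for PIP1-3 (95% interval -0.07 to 0.16, limma adjusted p = 1.00). The highest upper limit belonged to PIP2-1 at 0.18 and the lowest lower limit to PIP2-5, so steeper trends lay outside the intervals.

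The 8 seed-grown libraries of Fix T1 to T4 were compared with the 4 root-kept libraries of Fix T0 and CY84. PIP1-3 averaged 650 ± 140 FPKM in seed-grown plants (SD, n = 8) and 424 ± 93.6 FPKM in root-kept plants (SD, n = 4), with a log2 difference of 0.61 (SE 0.15, 95% interval 0.28 to 0.93, limma adjusted p = 0.0611). PIP2-5 averaged 12.1 ± 5.97 FPKM in seed-grown plants and 19.0 ± 3.95 FPKM in root-kept plants, with a difference of -0.73 (SE 0.25, 95% interval -1.26 to -0.19, limma adjusted p = 0.154). No PIP gene passed, against 2.07% of all tested genes, and these 2 had an unadjusted limma p under 0.05, against 19.3% of all. Libraries of the sets overlapped in all 9 members, while 0.747% of tested genes were higher and 0.901% lower without overlap. The clock gene LHY was lower in all 8 seed-grown libraries (11.7 to 53.3 FPKM) than in the 4 root-kept libraries (57.3 to 68.2 FPKM). For the other clock genes looked at, the sets overlapped. GI, for example, ranged from 118 to 232 FPKM in seed-grown and from 171 to 193 FPKM in root-kept libraries. The part of the clock genes in these differences was not tested. PIP1-3 passed without Fix T1 replicate 2 (limma adjusted p = 0.0297) or without Fix T2 replicate 1 (0.0214), and, in the fits chosen after seeing the data, without all 4 libraries of Fix T1 and Fix T2 (0.0134) and with library weights (0.0124). It ranged up to 0.287 in the other alternatives. All seed-grown plants are edited and 2 of the 4 root-kept libraries, those of CY84, are not, so raising and genotype cannot be told apart in this comparison.

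**Figure D4:**
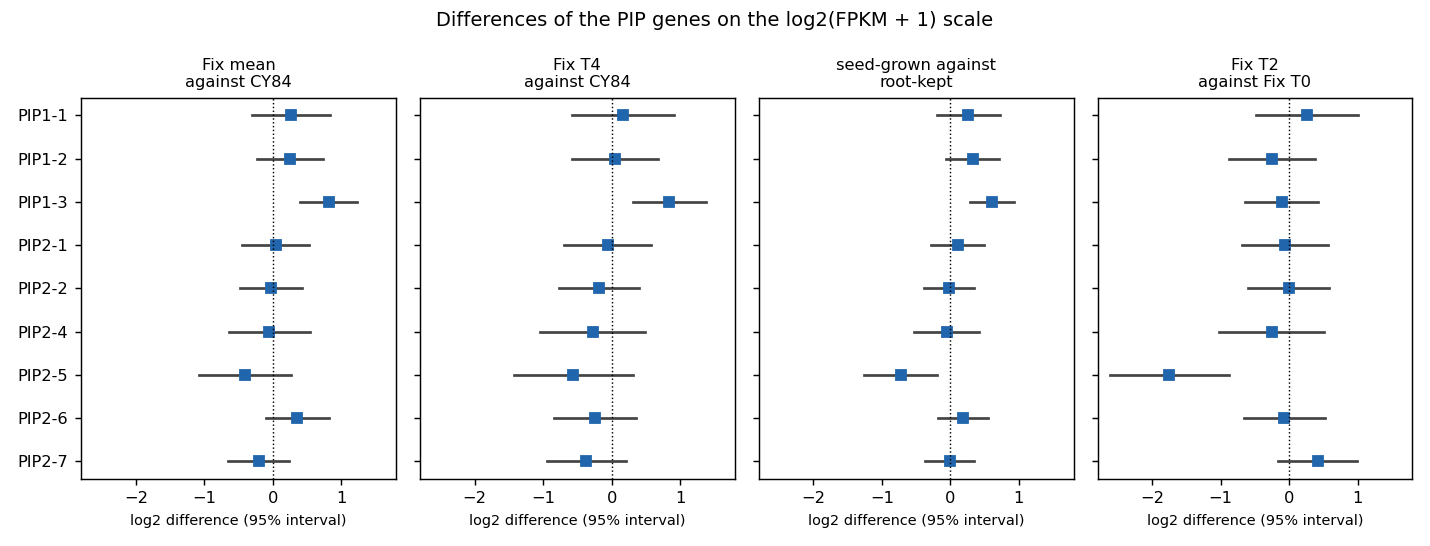
Log2 differences of the 9 tested PIP genes (squares) with 95% intervals from limma (bars) in 4 comparisons, on the log2(FPKM + 1) scale, the dotted line marking 0. PIP1-3 lies above 0 with its interval in the first 3 panels (0.82, 0.84 and 0.61), PIP2-5 lies below 0 in the last 2 (-0.73 and -1.75), and no member passed the adjusted threshold.

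Any difference among the 6 groups was looked for with an F test. None of the 9 members passed, against 1.91% of all tested genes, and 4 had an unadjusted limma p under 0.05, against 23.2% of all. The smallest belonged to PIP1-3 (limma adjusted p = 0.0915), followed by PIP2-5 (0.140), PIP1-2 (0.146) and PIP2-6 (0.170), and the largest to PIP2-2 (0.971). The lack of members passing the adjusted threshold depended on single libraries. The share of all tested genes passing without those libraries is not given here, so the calls that follow are no result about the members. PIP1-2, PIP1-3 and PIP2-6 did pass without Fix T1 replicate 2, and PIP1-3 did without Fix T2 replicate 1.

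The other aquaporins of the rice genome belong to the tonoplast (TIP), nodulin 26-like (NIP) and small basic (SIP) subfamilies, and 22 of these and of the remaining PIP genes were listed for comparison, of which 15 were tested. For the Fix mean against CY84, 1 of 15 passed as higher and 0 as lower, and in the 8 other comparisons with a direction 0 of 15 passed. The gene that passed was NIP2-1, the silicon channel LSI1, with 47.6 ± 13.4 FPKM in Fix (SD, n = 10) and 19.1 ± 0.724 FPKM in CY84 (SD, n = 2). Its log2 difference was 1.22 (SE 0.23, limma adjusted p = 0.0271), but 8 of 18 alternatives ended this call. It was lost without either CY84 library (limma adjusted p = 0.442 without replicate 1 and 0.476 without replicate 2), without either library of Fix T0 (0.0646 and 0.0565), without either library of Fix T4 (0.0612 and 0.0590), without the filter (0.0663) and after rescaling (0.0557).

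The most abundant of the other aquaporins were the vacuolar water channels TIP1-1, TIP1-2 and TIP4-1, with medians of 699, 420 and 368 FPKM over the 12 libraries, within the range of PIP1 genes and PIP2-1. TIP1-2 was lower in every Fix library (302 to 492 FPKM) than in both CY84 libraries (573 and 583 FPKM), as were 4.71% of tested genes. Its log2 difference was -0.56 (SE 0.17, 95% interval -0.93 to -0.19, limma adjusted p = 0.199). The lack of overlap did not hold after rescaling. Fix T1 replicate 1 (factor 0.868) and Fix T3 replicate 2 (factor 0.914) then lay above both CY84 libraries (factors 1.10 and 1.14). TIP1-1 differed by -0.19 and TIP4-1 by -0.22, and neither passed. PIP2-8 and 3 genes of the TIP and NIP subfamilies were listed at 0 in all 12 libraries, as PIP2-3 was.

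To describe how the members varied together, the log2 values of the 9 tested genes were centred and averaged in each library. This mean was highest in Fix T3 (0.24 and 0.31) and Fix T1 (0.21 and 0.18) and lowest in Fix T2 replicate 1 (-0.31) and Fix T4 replicate 2 (-0.29). This order depended on the scaling: after rescaling Fix T1 replicate 2 was at -0.04, Fix T2 replicate 2 at 0.37, against -0.10 before, and Fix T2 replicate 1 at -0.14, above CY84 replicate 1 (-0.31), while Fix T3 (0.43 and 0.46) and Fix T1 replicate 1 (0.43) were highest and Fix T4 replicate 2 was lowest (-0.63). Set against the mean of the other 8 members, so that no gene was correlated with itself, PIP1-2 had r = 0.69 over the 12 libraries and PIP2-6 r = 0.66, while PIP1-1 had r = 0.01 and PIP2-7 r = -0.30. Among genes outside the family, the pattern most like the mean of the 9, without rescaling, was that of LOC_Os02g42350 (r = 0.89, 8.83 to 17.6 FPKM) and LOC_Os09g32690 (r = 0.87, 25.5 to 41.5 FPKM). The most opposite patterns were those of LOC_Os01g43100 (r = -0.90, 1.45 to 3.99 FPKM) and LOC_Os06g39660 (r = -0.86, 1.46 to 3.67 FPKM). These are descriptions over 12 libraries that share groups and scaling, picked from all 18871 tested genes, and carry no test.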

How the data were processed

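The authors deposited 1 table of FPKM values with a column per library, per the file headers. Per the submitters' processing notes, the tools included HISAT2 2.1.0, featureCounts 1.6.4 and StringTie 1.3.4d. Their roles and the genome build are not given in the sources used here. The 20 unnamed columns were not used, and the 12 bisulfite samples were not analysed here. Absolute depth is unknown from FPKM, so no counting interval is given.

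Genes with at least 1 FPKM in at least 2 libraries (18871 of 55801) were fitted as log2(FPKM + 1) with limma 3.58.1 (R 4.3.3), using group means, a trended prior and 6 residual degrees of freedom, and p-values were adjusted by Benjamini-Hochberg over all tested genes (threshold 0.05). The fit was tested on simulated data. Alternatives were a pseudocount of 0.1, no filter, median-of-ratios rescaling, a replicate block, leaving out each library, and fits of the compared groups alone. Library weights and leaving out Fix T1 and Fix T2 were added after seeing the data. Replicate numbers were not taken to pair libraries.

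The members and lists were chosen with earlier results of these data known. All members were named. Other aquaporins were named if they passed or were among the 3 most abundant, and those listed at 0 were chosen after their values were seen. The genes most and least like the members' mean were 2 each. All 10 member names were found in the RefSeq annotation (assembly ASM3414082v1) on the chromosome of the identifier, as were 19 of the 22 other aquaporin names, which had been paired with identifiers by hand. No sequences were used.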

Additional observations from a re-analysis of the deposited data

How the results depend on the processing

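None of the 9 tested members passed in the fits as reported, and 1503 recomputed member differences under 19 alternatives gave 10 that passed, all of them PIP1-3. Their sign changed in 90 cases, in none of which either value had an unadjusted limma p under 0.05. The number of members passing rose to 1 for Fix T4 against CY84 in the fit of the compared groups alone, without the 4 libraries of Fix T1 and Fix T2, and with library weights. Without those 4 libraries and with library weights it was also 1 for the Fix mean against CY84 and for seed-grown against root-kept plants. For any difference among the 6 groups it was 2 without those 4 libraries (PIP1-3 and PIP2-6) and 1 with library weights. The number of all tested genes passing moved with these settings too. For Fix T0 against CY84 it was 17 as reported, 36 without those 4 libraries and 214 with library weights. Shares for the other comparisons are not given here, so the counts of members passing were not set against them. Leaving out 1 library at a time gave 0 to 1 for the Fix mean and for seed-grown against root-kept, 0 to 3 for any difference, and 0 for the other 7 comparisons. With the replicate block the count was 0 throughout, as without it. The labels do not say whether the numbers pair libraries. Deviations of equally numbered libraries correlated above 0.1 in 2 of 15 pairs of groups. The values ran from -0.304 (Fix T0 with Fix T2) to 0.193 (Fix T3 with Fix T4). With 2 libraries per group this cannot exclude pairing. For the comparisons that use all groups, the fit of the compared groups alone is the fit as reported. With a group reduced to 1 library, that library is assumed to vary like the others. Only 2 libraries per group, 2 of them of CY84, limit every comparison.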
